A study of Mus musculus with 48 samples.

Results

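The transcripts of 36 genes of glucose uptake, glycolysis, lactate handling, pyruvate oxidation and glycogen metabolism were followed in mouse cardiomyocytes. The members were taken from a list and kept where the deposited table of expected counts held a row for them. All 36 were present among 30743 rows, 35 under the listed symbol and Pkm2 under its current symbol Pkm. A total of 35 passed the filter on low counts in both sets of libraries, and Aldoc, the brain-type aldolase, did not.

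Glucose enters a cardiomyocyte mainly through the insulin-responsive carrier GLUT4 (Slc2a4) and, in smaller amounts, through GLUT1 (Slc2a1). Hexokinase traps it as glucose 6-phosphate, which is stored as glycogen or carried through phosphofructokinase, aldolase and the lower glycolytic enzymes to pyruvate. Pyruvate is reduced to lactate or oxidised by the pyruvate dehydrogenase complex, which the pyruvate dehydrogenase kinases switch off. The adult heart draws most of its energy from fatty acids, and several glycolytic steps have a muscle isoform beside forms found in other tissues or in the fetal heart.

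The study used mitochondrial-nuclear exchange (MNX) mice, in which the nuclear genomes of the strains C57BL/6J (C57) and C3H/HeN (C3H) are set on each other's mitochondrial DNA. RNA was taken on day 3 after ACF, a volume-overload operation whose abbreviation commonly stands for aortocaval fistula, or after sham surgery. The cells were isolated with collagenase after the right ventricle and atria had been removed. A first set of 24 libraries, called here the surgery series, carries the operation in its titles and holds 8 groups of 3: C3H_MNX after ACF and after sham, C3H_wt after ACF and after sham, C57_MNX after ACF and after sham, and C57_wt after ACF and after sham. A second set of 24 libraries, called here the sham series, is labelled sham throughout and holds 4 groups of 6: C3Hn-C57mt (C3H nucleus, C57 mitochondria), wild-type C3H_WT, C57n-C3Hmt (C57 nucleus, C3H mitochondria) and wild-type C57_WT. Levels were not compared between the sets.

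Library totals ran from 15890000 to 20770000 expected counts in the surgery series and from 15970000 to 26090000 in the sham series. Separate library numbers are given, but no label says that each came from its own mouse, so the p-values measure the spread between libraries. The genotype tag of the surgery-series C3H_MNX libraries names a C57 nucleus and that of C57_MNX a C3H nucleus, against their titles. Transcripts of Kcnj14, a potassium channel gene that was 6.03 higher (log2) with the C3H nucleus in the sham series, followed the titles (6.88 higher in C3H titles), so the groups are called by title. One C57_wt ACF library, number 489, stood apart. Its 8 summed cardiomyocyte markers reached 8550 CPM (counts scaled to a common library total), against 39600 to 88200 in the other 47 libraries, while its erythrocyte markers summed to 69600 CPM, against 8.98 to 313. ACF results are therefore given with and without it, and also without library 6756 (C3H_MNX, ACF), whose cardiomyocyte markers were the next lowest and whose fibroblast markers reached 1030 CPM. Library 6763 (C57_MNX, sham) was close to it, with 42000 CPM of cardiomyocyte and 618 CPM of fibroblast markers and the highest endothelial sum of all, 1090 CPM, so another fit, added after seeing the data, left out 489, 6756 and 6763. The libraries are bulk, so fewer cells of a type and less RNA per cell cannot be told apart.

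Per kilobase of coding sequence, the lower glycolytic enzymes led. Means over the 12 sham libraries of the surgery series were 1360 CPM per kb for Gapdh, which oxidises glyceraldehyde 3-phosphate, 842 for the muscle aldolase Aldoa and 726 for Ldhb, the heart-type lactate dehydrogenase subunit. Pdha1, the catalytic subunit of pyruvate dehydrogenase, followed at 679. Of the carriers, Slc2a4 had 269 CPM per kb, ranging from 222 to 301 over these libraries, against 8.86 for Slc2a1, with a range of 6.60 to 12.4. The lactate carrier Slc16a1 (MCT1) had 171, whereas Slc16a3 (MCT4) had 0.472 and Aldoc 0.0871. Muscle phosphorylase, Pygm, stood at 267 and the glycogen synthase Gys1 at 42.0. In the sham series the same genes led, with 2440 CPM per kb for Gapdh, 1830 for Aldoa and 1340 for Ldhb.

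**Figure D1:**
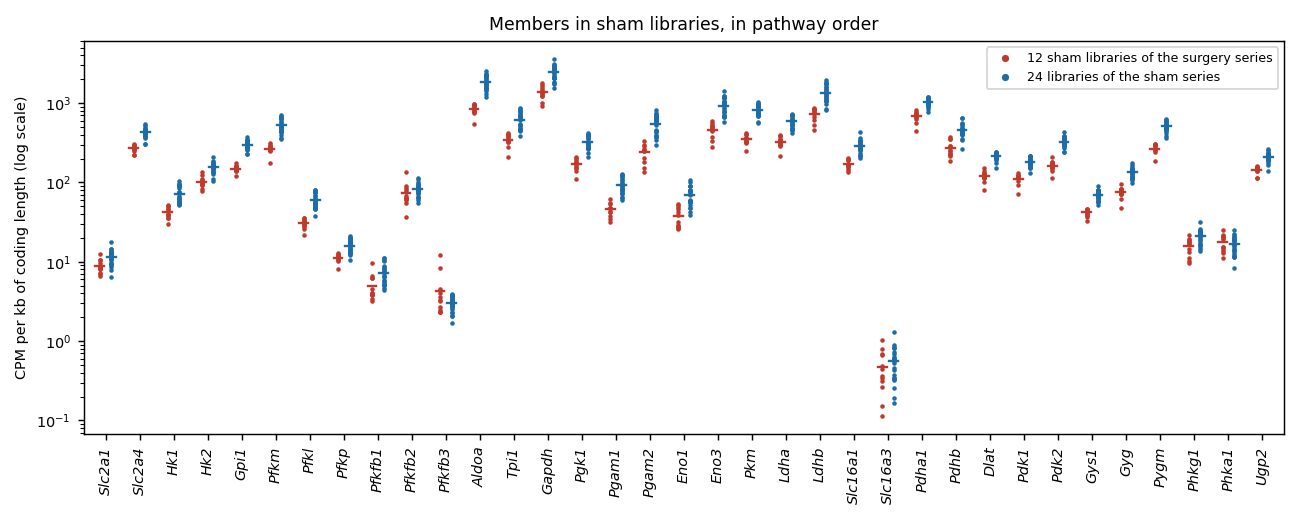
CPM per kilobase of coding sequence (log axis) of 35 members in each sham library, with 12 libraries of the surgery series in red and 24 of the sham series in blue, and horizontal lines at the means. Gapdh, Aldoa and Ldhb sit at the top and Slc16a3 near the bottom at a mean of 0.472 in the surgery series.

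Hexokinase was mostly Hk2 and phosphofructokinase 1 mostly Pfkm. Hk1 is the form found in most tissues and Hk2 the insulin-regulated muscle form, and Hk1 made up 32.2% ± 5.60 (SD, n = 48 libraries) of their summed length-corrected level. Of phosphofructokinase 1, the committed step of glycolysis, the muscle form Pfkm made up 85.9%, the liver form Pfkl 10.3% and the platelet form Pfkp 3.81% over the 48 libraries. No library had more Pfkl or Pfkp than Pfkm. In library 489 Hk1 made up 50.8% of hexokinase, the highest share of all.

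The 250 bases before the listed starts of both hexokinases, of Pfkm and of Pfkp are shown because the balance within these pairs differed between groups, as described further on. They are RefSeq sequences of build GRCm38.p6, whereas the counts were made on mm9. The searched motifs were ACGTG, the core of the hypoxia response element, and the E-box CACGTG, on both strands; every CACGTG also holds ACGTG, on each strand. Capitals mark the matches, which read CACGT where ACGTG lies on the opposite strand. Hk1 has listed starts with upstream windows at chr10:62379909-62380158 and chr10:62340422-62340671, both on the minus strand. The window of Hk2 is chr6:82774455-82774704, minus strand, that of Pfkp chr13:6648772-6649021, minus strand, and that of the first of 4 Pfkm starts chr15:98092339-98092588, plus strand.
Hk1 start 1: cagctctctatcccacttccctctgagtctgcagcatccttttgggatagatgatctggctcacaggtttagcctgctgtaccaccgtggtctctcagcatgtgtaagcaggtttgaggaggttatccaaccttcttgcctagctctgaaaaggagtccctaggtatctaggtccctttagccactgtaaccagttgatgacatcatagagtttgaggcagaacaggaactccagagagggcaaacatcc
Hk1 start 2: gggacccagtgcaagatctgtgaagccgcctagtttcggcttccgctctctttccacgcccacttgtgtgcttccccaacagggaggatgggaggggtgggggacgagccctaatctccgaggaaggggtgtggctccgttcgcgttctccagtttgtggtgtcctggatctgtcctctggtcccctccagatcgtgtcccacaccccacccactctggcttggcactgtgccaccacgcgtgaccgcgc
Hk2: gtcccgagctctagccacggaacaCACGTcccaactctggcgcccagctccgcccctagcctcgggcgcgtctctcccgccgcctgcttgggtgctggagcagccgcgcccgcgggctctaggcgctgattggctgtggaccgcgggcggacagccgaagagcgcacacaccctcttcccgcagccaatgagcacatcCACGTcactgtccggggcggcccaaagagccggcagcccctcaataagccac
Pfkp: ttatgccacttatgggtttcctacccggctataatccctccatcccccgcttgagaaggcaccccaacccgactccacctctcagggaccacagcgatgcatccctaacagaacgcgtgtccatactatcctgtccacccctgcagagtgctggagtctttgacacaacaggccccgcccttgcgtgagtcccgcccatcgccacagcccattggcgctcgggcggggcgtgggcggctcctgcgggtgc
Pfkm start 1: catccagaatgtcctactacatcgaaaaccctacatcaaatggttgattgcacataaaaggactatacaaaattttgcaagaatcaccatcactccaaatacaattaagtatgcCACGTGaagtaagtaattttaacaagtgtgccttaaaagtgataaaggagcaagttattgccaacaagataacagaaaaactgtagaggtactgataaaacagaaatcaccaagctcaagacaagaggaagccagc
The Hk2 window held ACGTG at -226 and -52 and the first Pfkm window a CACGTG at -136, counted from the start, while the windows of Hk1 and Pfkp held neither. Another Pfkm window, not shown, held 1 ACGTG and no CACGTG. The remaining Pfkm windows and that of Pfkl, also not shown, held neither. Balance differed in other pairs as well, whose windows are not shown. There 1 Ldha window held 5 ACGTG and 2 CACGTG, while the other Ldha window and that of Ldhb held neither. The Pgam1 and Slc2a1 windows held 1 ACGTG each and no CACGTG, and those of Pgam2, Eno1 and Eno3 held neither. Promoters were listed for 35 of the 36 members, with Slc2a4 unmatched. ACGTG was in 20 of 55 member windows (36.4%), against 5444 of 32851 windows of all genes (16.6%), and CACGTG in 6 of 55 (10.9%), against 6.02% of all. These matches describe the letters in the windows only.

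After ACF Pfkp was the one member that rose with all libraries in the fit. Averaged over the 4 genotypes, 1 of 35 members passed edgeR's quasi-likelihood test at a Benjamini-Hochberg adjusted p of 0.05, where 0.275% of 13440 genes were called, and 7 members had an unadjusted p below 0.05. Without library 489, 3 members rose and 1 fell, with 0.923% of all genes called. The risers were Pfkp, Hk1 and Slc16a1, and the one that fell was Phkg1. Without libraries 489 and 6756, 8 members rose and 1 fell, with 2.55% of genes called. Without library 6763 as well, 8 rose and 1 fell, with 2.47% of genes called; Aldoa (0.27) and Slc16a3 (1.03) were then called, and Ldha and Gys1 were not. The median log2 difference was -0.006 over the 35 members and 0.001 over all genes with 24 libraries, and 0.116 and -0.001 without library 489.

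**Figure D2:**
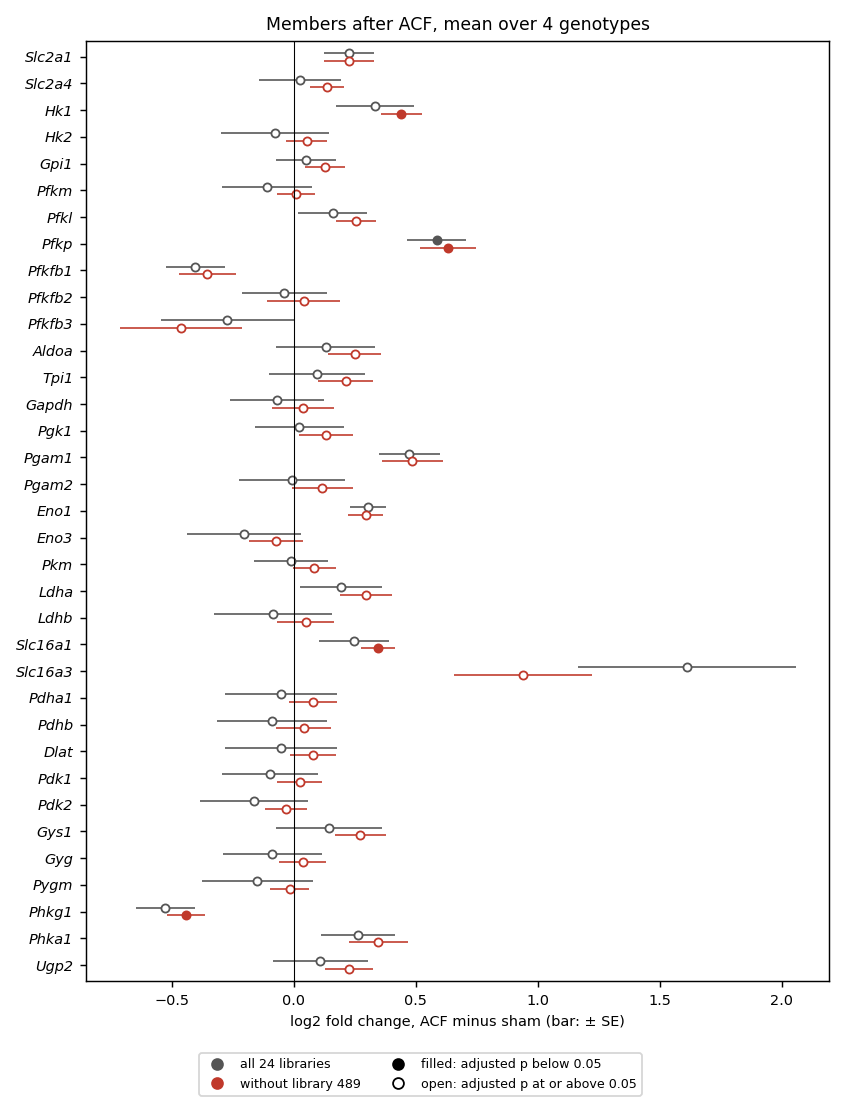
log2 fold change (ACF minus sham, mean of 4 genotypes, edgeR) of each tested member with ± 1 SE, in pathway order, for all 24 libraries in grey and without library 489 in red; filled points have an adjusted p below 0.05. Pfkp is filled in both fits, and Hk1, Slc16a1 and Phkg1 only without library 489.

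The mean level of Pfkp after ACF was above that after sham in each genotype. In C3H_MNX it had 40.0, 45.4 and 24.9 CPM after ACF, the last in library 6756, against 27.1, 24.4 and 28.1 CPM after sham, and in C3H_wt 57.5, 33.2 and 69.3 CPM after ACF against 30.0, 28.7 and 27.98 CPM after sham. In C57_MNX it had 37.7, 38.7 and 27.6 CPM after ACF against 26.6, 23.9 and 19.1 CPM after sham, and in C57_wt 38.5, 26.9 (library 489) and 44.0 CPM after ACF against 26.9, 29.8 and 25.6 CPM after sham. Thus 10 of 12 ACF libraries lay above every sham library of their genotype, the exceptions being libraries 489 and 6756. The log2 difference was 0.59 (SE 0.122, edgeR adjusted p = 0.0442) with all libraries and 0.63 (adjusted p = 0.0127) without library 489. The call is close to the threshold: it was lost in 19 of 24 fits that left out 1 library, with adjusted p up to 0.108, and was kept without library 465, 471, 489, 6693 or 6756. Pfkp overlaps the mitochondrial protease gene Pitrm1, which differed by -0.06 (adjusted p = 0.915).

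The other phosphofructokinases did not pass with all libraries. Pfkl had 97.2, 96.2 and 57.7 CPM after ACF against 83.9, 70.9 and 84.4 CPM after sham in C3H_MNX, and 99.0, 80.4 and 94.6 CPM against 76.4, 78.2 and 74.3 CPM in C3H_wt. It had 70.3, 81.2 and 68.5 CPM after ACF against 64.9, 60.6 and 50.8 CPM after sham in C57_MNX, and 82.6, 28.8 (library 489) and 97.4 CPM against 68.0, 67.3 and 74.8 CPM in C57_wt. Here too 10 of 12 ACF libraries stood above their own sham libraries and the other two, 489 and 6756, below. The Pfkl difference passed the test without both of them (0.31, edgeR adjusted p = 0.0118) and not without 489 alone (0.26, adjusted p = 0.158).
Pfkm ranged from 551 to 728 CPM over 10 ACF libraries, with 451 in library 6756 and 129 in library 489, against 413 to 732 CPM in the 12 sham libraries. The groups overlapped. Among the enzymes that set fructose 2,6-bisphosphate, the activator of phosphofructokinase 1, Pfkfb1 differed by -0.40 (adjusted p = 0.184), and none of Pfkfb1, Pfkfb2 and Pfkfb3 passed in any of the 4 fits.

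Hk1 was higher after ACF in 10 of 12 libraries than in every sham library of the same genotype, and lower in libraries 489 and 6756. It had 182, 176 and 105 CPM after ACF against 146, 132 and 145 CPM after sham in C3H_MNX, and 184, 172 and 193 CPM against 113, 143 and 130 CPM in C3H_wt. In C57_MNX it had 146, 133 and 124 CPM after ACF against 110.1, 112 and 85.8 CPM after sham, and in C57_wt 161, 44.2 (library 489) and 181 CPM against 99.6, 101 and 111 CPM. The log2 difference was 0.33 (edgeR adjusted p = 0.439) with all libraries and 0.44 (SE 0.0840, adjusted p = 0.0147) without library 489. Hk2 had 270.4, 256 and 197 CPM after ACF against 270.1, 302 and 260.0 CPM after sham in C3H_MNX, and 267, 251 and 222 CPM against 224, 338 and 293 CPM in C3H_wt. In C57_MNX Hk2 had 301, 321 and 285 CPM after ACF against 271, 255 and 214 CPM after sham, and in C57_wt 366, 41.5 (library 489) and 389 CPM against 284, 256 and 367 CPM. ACF and sham libraries overlapped for Hk2 in every genotype but C57_MNX, and Hk2 passed in none of the 4 fits.

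Phkg1, the muscle catalytic subunit of the kinase that activates glycogen phosphorylase, was lower after ACF. It had 15.2, 15.6 and 14.3 CPM after ACF against 21.4, 21.9 and 20.7 CPM after sham in C3H_MNX, and 12.6, 10.8 and 16.3 CPM against 22.7, 25.3 and 19.8 CPM in C3H_wt. In C57_MNX it had 13.7, 9.50 and 9.80 CPM after ACF against 12.0, 11.1 and 13.0 CPM after sham, and in C57_wt 14.1, 5.30 (library 489) and 12.6 CPM against 19.4, 17.0 and 15.3 CPM. In all, 11 of 12 ACF libraries lay below every sham library of their genotype, and 1 C57_MNX library lay above. The log2 difference was -0.53 (edgeR adjusted p = 0.0736) with all libraries and -0.44 (SE 0.0776, adjusted p = 0.0107) without library 489. Phkg1 overlaps Sumf2, which differed by 0.04 (adjusted p = 0.941). The other 5 glycogen genes tested, the synthase Gys1, its primer Gyg, Pygm, the kinase subunit Phka1 and Ugp2, which makes UDP-glucose, did not pass with all libraries or without library 489. Gys1 passed without libraries 489 and 6756 (0.33, adjusted p = 0.0474).

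Slc16a1 (MCT1), the main lactate carrier of the heart, had 258, 298 and 287 CPM after ACF against 223, 238 and 213 CPM after sham in C3H_MNX, and 291, 242 and 348 CPM against 202, 255 and 249 CPM in C3H_wt. In C57_MNX it had 379, 398 and 332 CPM after ACF against 291, 287 and 287 CPM after sham, and in C57_wt 327, 106 (library 489) and 357 CPM against 251, 240.1 and 303 CPM. Of the 12 ACF libraries 10 lay above their own sham libraries and library 489 lay below. The log2 difference was 0.25 (edgeR adjusted p = 0.556) with all libraries and 0.35 (SE 0.0689, adjusted p = 0.0194) without library 489. Slc16a3, the carrier of strongly glycolytic cells, differed by 1.61 (adjusted p = 0.141). Its highest level was 14.2 CPM in library 489, and the other 11 ACF libraries had 0.766 to 3.10 CPM.

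Of the 9 lower glycolytic enzymes tested none passed with all libraries or without library 489. The nearest were Eno1 (0.30, edgeR adjusted p = 0.0907) and Pgam1 (0.47, adjusted p = 0.119), the non-muscle forms of enolase and phosphoglycerate mutase. For each of these, 11 of 12 ACF libraries lay above their own sham libraries and 1 below. Both passed without libraries 489 and 6756, Pgam1 at 0.57 and Eno1 at 0.33, as did Ldha, the muscle-type lactate dehydrogenase subunit, at 0.35. The 5 pyruvate dehydrogenase genes (Pdha1, Pdhb, Dlat, Pdk1, Pdk2) and the 2 glucose carriers passed in none of the 4 fits.

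The balance between isoforms of a step was then read within each library, as the difference of their log2 CPM, which does not depend on the scaling between libraries. Of 8 pairs, 6 shifted after ACF toward the isoform less typical of adult heart muscle, by a 2-sided exact permutation test over the 24 libraries with labels permuted within genotype and p-values adjusted over the 8 pairs. The differences, ACF minus sham, were 0.74 for Pfkp over Pfkm (adjusted exact p = 0.0001), 0.63 for Eno1 over Eno3 (0.0001) and 0.48 for Hk1 over Hk2 (0.00045). They were 0.30 for Pfkl over Pfkm (0.00045), 0.57 for Pgam1 over Pgam2 (0.00124) and 0.36 for Ldha over Ldhb (0.00507). Eno3 and Pgam2 are the muscle forms of enolase and phosphoglycerate mutase. Slc2a1 over Slc2a4 (0.28, adjusted exact p = 0.0870) and Aldoc over Aldoa (0.22, adjusted exact p = 0.688) did not pass.

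The mean shift had the same sign in all genotypes, though not the same size. Each of the 6 ratios was higher after ACF in 4 of 4 genotypes, and leaving out each library in turn left all 6 past the threshold in 24 of 24 cases. The difference was only 0.09 for Hk1 over Hk2 in C57_MNX and 0.12 for Ldha over Ldhb in C3H_wt. In C57_wt without library 489, Ldha over Ldhb differed by 0.12. There 0 of 2 ACF libraries stood above all sham libraries for Pgam1 over Pgam2 (0.33). Pfkp over Pfkm stood above every sham library of the same genotype in 12 of 12 ACF libraries, Eno1 over Eno3 in 11, Pfkl over Pfkm in 10, Hk1 over Hk2 and Pgam1 over Pgam2 in 9 each and Ldha over Ldhb in 8. Without library 489 the differences were 0.59 for Pfkp over Pfkm, 0.37 for Hk1 over Hk2, 0.36 for Eno1 over Eno3, 0.36 for Pgam1 over Pgam2, 0.24 for Pfkl over Pfkm and 0.24 for Ldha over Ldhb, with adjusted exact permutation p from 0.0001 to 0.00985. The Eno1, Pgam1 and Ldha ratios thus shrank by more than 1.5 times when that library was left out. The titles carry an L digit whose meaning is not stated. Within the 7 L values that hold both operations, Pfkp over Pfkm was higher after ACF in 7, Eno1 over Eno3 in 5 and each of the other 4 ratios in 6. These counts do not hold the genotype fixed. Only in L8 did the same genotype, C3H_MNX or C57_MNX, have both operations. In the other L values the ACF and sham libraries came from different genotypes, so operation and genotype cannot be told apart there. The only ACF library of L7 was 489.

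**Figure D3:**
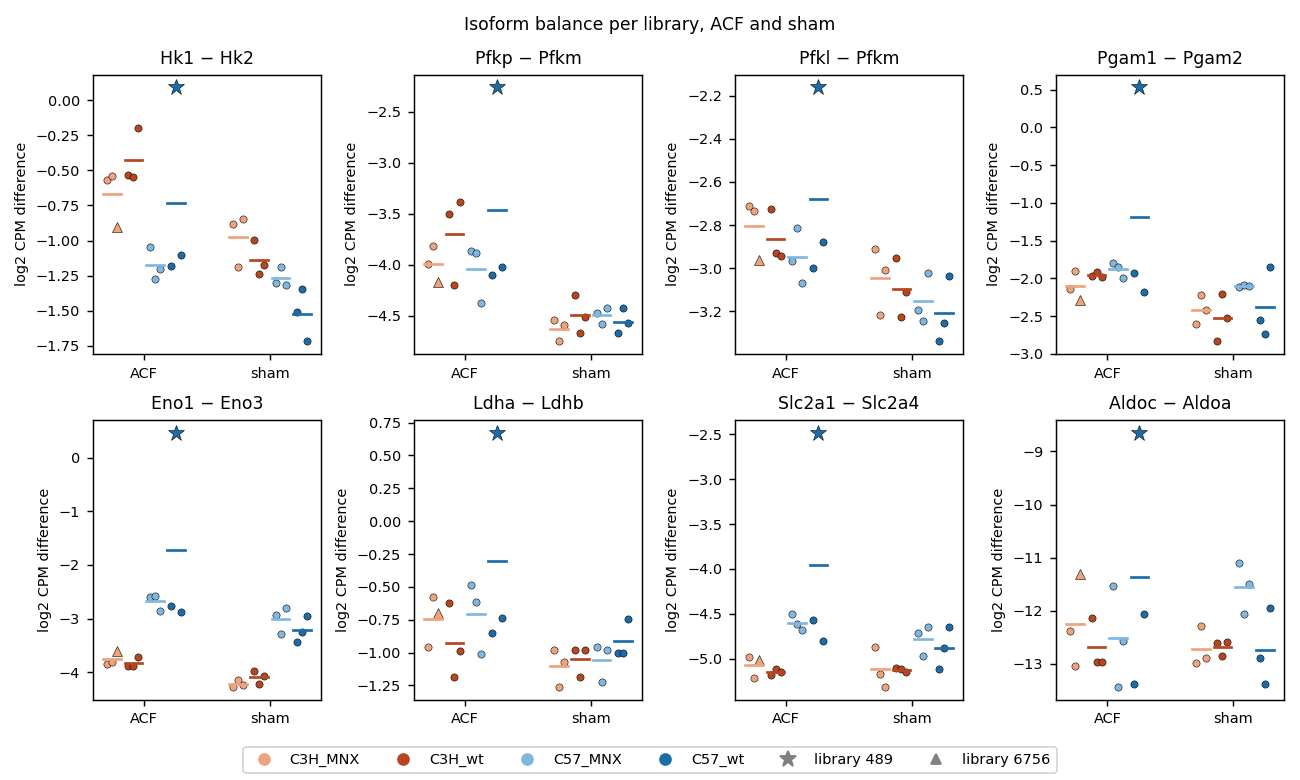
log2 CPM difference between 2 isoforms of a step in each library of the surgery series, ACF left and sham right, coloured by genotype, with bars at the mean of the 3 libraries of a group; a star marks library 489 and a triangle library 6756. Library 489 is highest in all 8 panels, and the Pfkp panel keeps its gap without it (-3.94 ± 0.294 after ACF and -4.54 ± 0.126 after sham, mean ± SD).

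As shares of the length-corrected level, Pfkp made up 5.47% ± 1.09 of phosphofructokinase 1 after ACF without library 489 (SD, n = 11) and 3.68% ± 0.298 after sham (n = 12). The ranges were 4.09% to 7.74% after ACF and 3.22% to 4.28% after sham, so they overlapped slightly, and library 489 had 14.5%. Pfkm remained the main form in both, at 83.2% ± 1.5 after ACF and 86.4% ± 0.989 after sham. Hk1 made up 35.5% ± 5.73 of hexokinase after ACF without library 489 and 29.4% ± 3.52 after sham.

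Several of the rising isoforms are also made by non-muscle cells, so markers of such cells were read beside them. Without library 489, the summed fibroblast markers had a median of 324 CPM after ACF (188 to 1030) and 358 CPM after sham (238 to 618), and the endothelial markers 500 CPM after ACF (259 to 1040) and 474 CPM after sham (301 to 1090). Macrophage markers had medians of 63.5 CPM after ACF (45.6 to 198) and 72.6 CPM after sham (49.8 to 138), and no fibroblast, endothelial or macrophage marker was at 0 in any library. Of the 8 fibroblast, 8 endothelial, 9 macrophage and 6 smooth muscle and pericyte markers tested, none was called by edgeR in the mean ACF effect without library 489. In that fit 0.923% of all genes were called, so few calls could be expected among so few markers. Of 5 erythrocyte markers tested 1 was called, the spectrin gene Spna1 (-1.03, edgeR adjusted p = 0.00238), and their sum had a median of 31.6 CPM after ACF (11.8 to 313) and 50.4 CPM after sham (8.98 to 177). Neutrophil markers summed to a median of 1.39 CPM after ACF (0.736 to 40.2) and 1.75 CPM after sham (1.15 to 4.07), and 0 of 4 tested were called. C57_MNX ACF library 6693 held both the 313 CPM of erythrocyte and the 40.2 CPM of neutrophil markers. Lymphocyte markers summed to at most 0.846 CPM after ACF and 0.726 CPM after sham. Of the load-response genes Nppa, Nppb and Myh7, 2 of 3 rose. The part of cell content in the isoform differences was not tested.

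Within single genotypes, with 3 libraries a group, no member passed for ACF against sham in the fit of all 24 libraries. Unadjusted p fell below 0.05 for 2 members in C3H_MNX, 7 in C3H_wt, 2 in C57_MNX and 3 in C57_wt, and DESeq2 called none. The share of all genes called by edgeR was 0.00744% in C3H_MNX and 0% in the other 3 genotypes. Without library 489, Phkg1 passed in C3H_wt (-0.78, edgeR adjusted p = 0.0278), where 0.509% of genes were called. Without libraries 489 and 6756, 4 members rose and 1 fell in C3H_wt, with 1.42% of genes called: Pgam1 (0.88), Pfkp (0.87), Ugp2 (0.72) and Hk1 (0.50) rose and Phkg1 fell. Tests of whether the ACF effect differed between C3H_MNX and C3H_wt, between C57_MNX and C57_wt, or between C3H_wt and C57_wt called 0 members in edgeR and in DESeq2. Members at an unadjusted p below 0.05 numbered 0, 1 and 2. In each of these tests edgeR called 0% of all 13440 genes.

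The nuclear strain was read in the sham series, where 12 libraries with a C3H nucleus stood against 12 with a C57 nucleus, with both kinds of mitochondria on each side. Of 35 members, 15 were higher and 2 lower with the C3H nucleus, where 35.7% of 13395 genes were called (18.9% higher, 16.8% lower). The median log2 difference was 0.211 over the members and 0.008 over all genes, and 30 of 35 members were positive. The higher members included 6 of 9 lower glycolytic enzymes, all 3 phosphofructokinase 1 genes, 2 of 4 lactate genes and 2 of 6 glycogen genes. The phosphofructokinase 2 genes (Pfkfb1, Pfkfb2 and Pfkfb3) held none, and the pyruvate dehydrogenase genes 1 of 5, the kinase Pdk1 (0.21).

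The ranges of Hk1 and Eno1 did not overlap between nuclei, and Eno1 is described further on with its near-identical copy. How many of all genes had ranges without overlap was not counted. The log2 CPM of Hk1 ran from 7.59 through a median of 7.98 to 8.23 with the C3H nucleus and from 7.22 through 7.31 to 7.48 with the C57 nucleus, and the difference was 0.60 (SE 0.0626, edgeR adjusted p = 1.48e-08). Hk2 ran from 8.54 through 8.84 to 9.01 with the C3H nucleus and from 8.16 through 8.69 to 9.16 with the C57 nucleus, overlapped throughout and did not pass.

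The muscle isoforms of the lower pathway were higher with the C3H nucleus as well. Pgam2 ran from 8.37 through 8.99 to 9.28 (log2 CPM) with the C3H nucleus and from 7.82 through 8.31 to 8.86 with the C57 nucleus, a difference of 0.60 (edgeR adjusted p = 7.44e-05). Eno3 ran from 9.81 through 10.48 to 10.84 with the C3H nucleus and from 9.54 through 9.90 to 10.37 with the C57 nucleus, a difference of 0.50 (adjusted p = 0.000184). Both pairs of ranges overlapped. Phka1, a regulatory subunit of phosphorylase kinase carried on the X chromosome, ran from 5.72 through 6.18 to 6.56 with the C3H nucleus and from 4.97 through 5.64 to 6.15 with the C57 nucleus (0.53, adjusted p = 1.43e-05). Slc16a3 differed by 0.79 (adjusted p = 0.00198), at levels of 0.235 to 1.83 CPM. The others that rose were Gapdh (0.47), Pgam1 (0.47), Pfkl (0.44), Tpi1 (0.42), Ldha (0.38), Pfkm (0.31), Pfkp (0.29), Aldoa (0.28) and Gyg (0.21). Slc2a1 was lower with the C3H nucleus, from 3.24 through 3.85 to 4.28 against 3.79 through 4.27 to 4.72 with the C57 nucleus (-0.39, adjusted p = 0.00272), and the ranges overlapped.

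**Figure D4:**
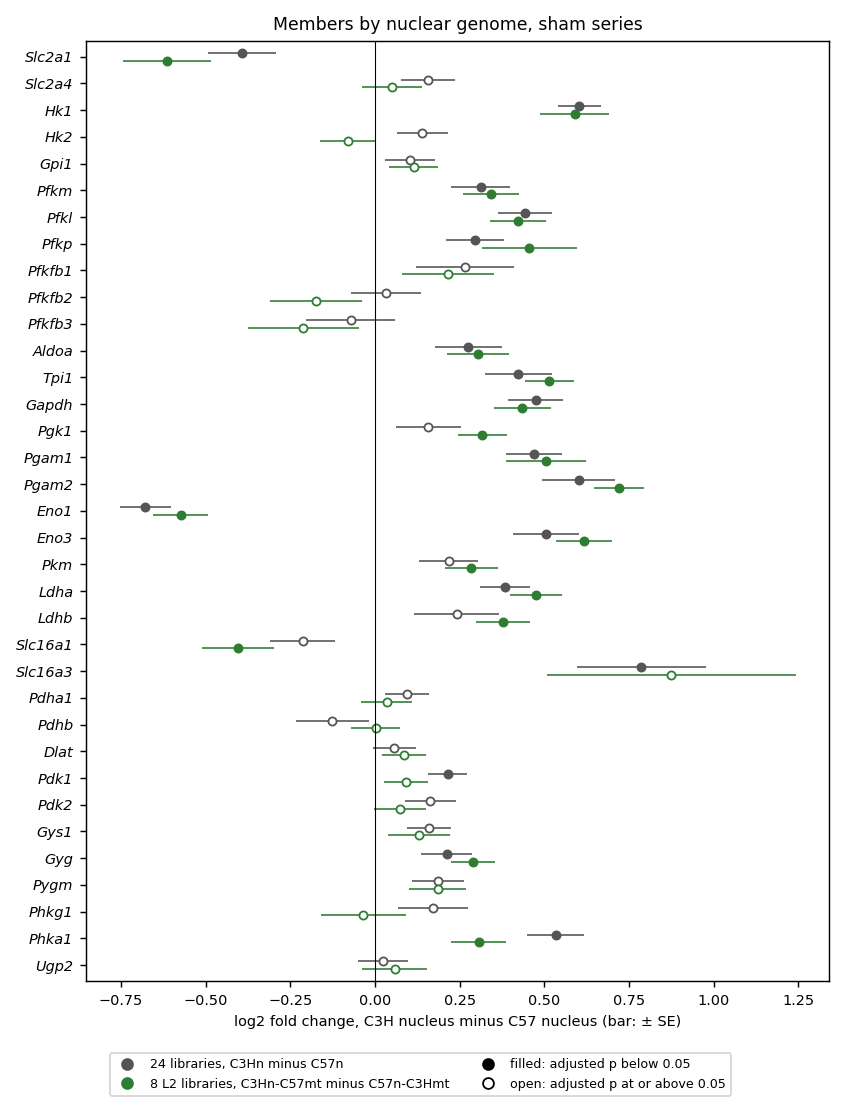
log2 fold change of each tested member between the C3H and the C57 nucleus (C3H minus C57, edgeR) with ± 1 SE, in pathway order, for the 24 sham-series libraries in grey and the 8 L2 libraries alone in green; filled points have an adjusted p below 0.05. Over the 24 libraries 15 members are filled to the right of 0 and Eno1 and Slc2a1 to its left.

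The L digit is tied to these groups. All 6 C3H_WT libraries carry L3 and all 6 C57_WT libraries L8, whereas 4 libraries of each exchanged group carry L2. With the L digit in the model 4 members passed: Pgam1 (0.77, edgeR adjusted p = 0.00522), Hk1 (0.59, adjusted p = 0.00759), Ldha (0.53, adjusted p = 0.0365) and Eno1 (-0.68, adjusted p = 0.0112). The share of all genes called in that fit was not counted, so a loss particular to the members cannot be told from a loss over all genes. Of the 13 that were no longer called, Pgam2 (0.71), Eno3 (0.50), Tpi1 (0.46), Gapdh (0.39), Pfkl (0.35), Pfkp (0.30), Gyg (0.21), Slc16a3 (0.79) and Slc2a1 (-0.61) had differences that did not shrink by more than 1.5 times. Those of Phka1 (0.09), Pdk1 (0.06), Pfkm (0.16) and Aldoa (0.15) shrank by more than 1.5 times. Among the 8 L2 libraries alone, 4 C3Hn-C57mt against 4 C57n-C3Hmt, 16 members were higher and 3 lower, with 30.1% of 12910 genes called. Of the 17 members called over 24 libraries, all 17 kept their sign there and 15 were called, which is 88.2% of the first list and 78.9% of the second. Those not called were Pdk1 and Slc16a3. The L2 groups also differ in their mitochondria, so nucleus and mitochondria cannot be told apart within L2. Over the 24 libraries 1 of 9 macrophage markers was higher and 4 lower with the C3H nucleus, where 35.7% of all genes were called. The load-response genes were 2 of 3 higher. Of 8 cardiomyocyte markers, and of 7 smooth muscle and pericyte markers, 1 was higher and 1 lower. Of the fibroblast markers 1 of 8 was higher, and 1 of 8 endothelial and 1 of 4 erythrocyte markers were lower. The part of these genes in the members' differences was not tested.

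Split by mitochondria, 17 members were higher and 1 lower with the C3H nucleus on C57 mitochondria (31.9% of genes called), and 7 higher and 2 lower on C3H mitochondria (19.4%). Neither split shares an L digit between nuclei. C3Hn-C57mt carries L2 or L3 and C57_WT L8, and C3H_WT carries L3 and C57n-C3Hmt L2 or L8. Nucleus and L digit therefore cannot be told apart within a split, and fewer members were called with the L digit in the model, as given in the last section. Hk1 differed by 0.70 on C57 mitochondria and by 0.51 on C3H mitochondria, and Eno1 by -0.61 and -0.74. Phka1 (0.84), Gapdh (0.61), Pfkl (0.59) and Pgam2 (0.64) were among the higher genes on C57 mitochondria, and Slc16a3 (1.51), Pgam2 (0.56) and Slc2a1 (-0.53) among those called on C3H mitochondria. The test of the difference between these effects is given with the mitochondrial comparisons.

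In the surgery series, libraries with a C3H title had 5 members higher and 1 lower than those with a C57 title, where 21.4% of 13440 genes were called. The higher members were Phka1 (0.77, edgeR adjusted p = 0.00103), Pgam2 (0.62), Phkg1 (0.50), Pfkfb1 (0.45) and Pgam1 (0.39), and Eno1 was lower (-0.79, adjusted p = 1.26e-07). Pgam2 ran from 7.00 through 7.74 to 8.12 (log2 CPM) in C3H titles and from 4.72 through 7.25 to 7.76 in C57 titles, with overlap. Without library 489, 9 were higher and 2 lower (27.3% called), Hk1 among them at 0.29 (adjusted p = 0.0149). Without libraries 489 and 6756, 15 were higher and 2 lower (33% called). In that fit 4 of 9 macrophage, 3 of 6 smooth muscle and pericyte, 2 of 8 fibroblast and 1 of 5 erythrocyte markers were lower in C3H titles and 3 of 3 load-response genes higher; their part in the members' differences was not tested. Of the 17 members called in the sham series 4 were called with the same sign here, which is 23.5% of the sham-series calls and 66.7% of the surgery-series calls, and 16 (94.1%) had the same sign. Over all genes tested in both sets the shares were 47.4% and 79.3%, and 95.3% had the same sign. Between the wild types alone, C3H_wt against C57_wt, Pfkfb1 (0.90, adjusted p = 0.00127) and Phka1 (1.09, adjusted p = 0.00184) were higher and Eno1 lower, with 11.1% of genes called. Without libraries 489 and 6756, 3 were higher and 2 lower (17% called).

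The lower count of Eno1 with the C3H nucleus went with a higher count of a near-identical gene. Gm5506 is 99.5% identical to Eno1 over 1736 aligned bases. In the sham series Eno1 had 50.7 to 79.1 CPM (median 73.6) with the C3H nucleus and 89.8 to 139 CPM (median 104) with the C57 nucleus, while Gm5506 had 41.5 to 66.8 CPM (median 62.6) with the C3H nucleus and 1.22 to 4.33 CPM (median 2.34) with the C57 nucleus. Their sum had medians of 136 CPM with the C3H nucleus and 108 CPM with the C57 nucleus and overlapped. With Gm5506 added, the log2 difference of Eno1 was 0.18 (edgeR adjusted p = 0.0625) in the sham series and 0.03 (adjusted p = 0.825) in the surgery series. Reads of near-identical copies can be split between them by the counting, so the level of Eno1 alone between strains is uncertain. The ACF shift of enolase did not change when the copy was added (0.63 over Eno3, adjusted exact permutation p = 0.00015).

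**Figure D5:**
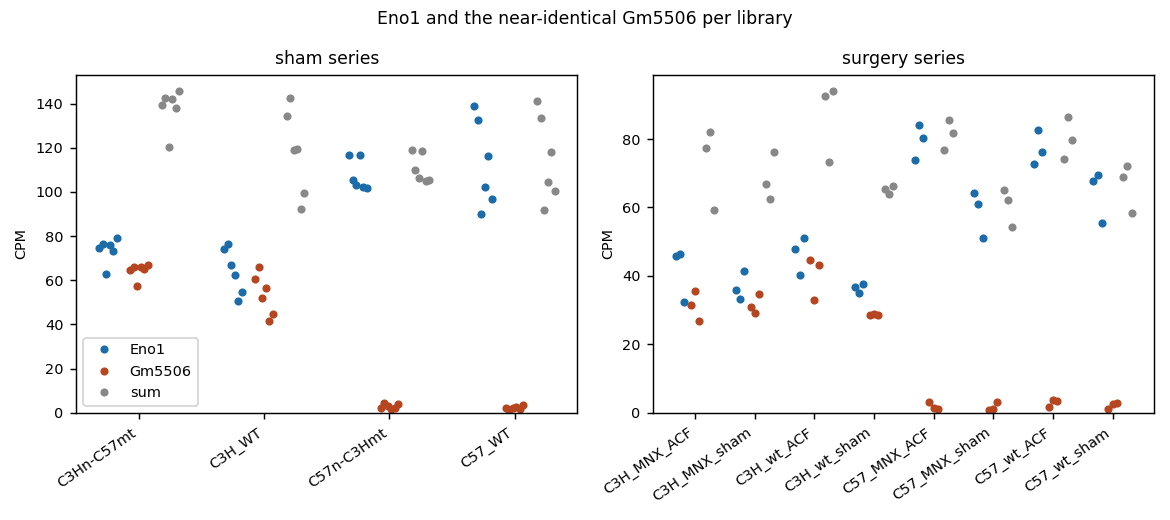
CPM of Eno1 (blue), Gm5506 (red) and their sum (grey) in each library, by group, for the sham series and the surgery series. Gm5506 is at most 4.33 CPM with the C57 nucleus in the sham series and at least 41.5 CPM with the C3H nucleus, and the sums overlap.

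Isoform balance also differed with the nucleus, in 4 of 8 pairs by the same exact permutation test, with labels permuted within each mitochondrial type. Within a mitochondrial type the nuclei share no L digit, so this test cannot tell nucleus and L digit apart. Hk1 over Hk2 was higher with the C3H nucleus by 0.45 (adjusted exact p = 0.000137) and Pfkl over Pfkm by 0.14 (0.000816). Slc2a1 over Slc2a4 differed by -0.56 (adjusted exact p = 9.36e-06) and Eno1 over Eno3 by -1.18 (9.36e-06), or by -0.33 with Gm5506 added (adjusted exact p = 1.88e-05). Pfkp over Pfkm, the pair with the largest difference after ACF, differed by -0.002 between nuclei (adjusted exact p = 0.986). Within L2 the differences were 0.65 for Hk1 over Hk2, -0.65 for Slc2a1 over Slc2a4 and -1.195 for Eno1 over Eno3, each with an exact permutation p of 0.0286, the smallest that 4 against 4 libraries allow, whereas Pfkl over Pfkm differed by 0.08 (exact permutation p = 0.2). The L2 groups differ in their mitochondria too, so nucleus and mitochondria cannot be told apart there. Hk1 made up 34.6% ± 2.15 of hexokinase with the C3H nucleus and 28.1% ± 3.41 with the C57 nucleus (SD, n = 12 each).

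No member was called for the mitochondrial genome. In edgeR 0 of 35 passed for C3H against C57 mitochondria over both nuclei, for C57n-C3Hmt against C57_WT and for C3Hn-C57mt against C3H_WT, with 1, 4 and 6 members at an unadjusted p below 0.05, and DESeq2 called 0 in each. Of all genes 0%, 0% and 0.00747% were called. The smallest unadjusted p were those of Pfkp over both nuclei (-0.18, edgeR adjusted p = 0.914), Hk2 in C57n-C3Hmt against C57_WT (0.32, adjusted p = 0.289) and Phka1 in C3Hn-C57mt against C3H_WT (0.32, adjusted p = 0.471). Hk2 had log2 CPM from 8.54 through a median of 8.85 to 9.16 in C57n-C3Hmt and from 8.16 through 8.56 to 8.72 in C57_WT, with overlap. The test of whether the nuclear effect differed between mitochondria called 0 members in edgeR, where 0% of 13395 genes were called. An unadjusted p below 0.05 was found for 6 members, led by Slc16a3 (-1.45, edgeR adjusted p = 0.0890) and Phka1 (0.62, adjusted p = 0.0948). DESeq2 called 2 members, and the share of all genes that it called was not counted. None of the 8 isoform ratios passed for mitochondria. In the surgery series, MNX against wild type by title called 0 members in both strains, with 2 (C3H) and 0 (C57) at an unadjusted p below 0.05, where 0.0223% and 0% of all genes were called.

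A wider list of glucose genes was counted beside the members: 72 were listed, 70 had rows and 65 were tested. In the ACF effect averaged over genotypes 0 of 65 passed with 24 libraries or without library 489, where 0.275% and 0.923% of all genes were called. Gpd1l, a glycerol 3-phosphate dehydrogenase-like enzyme, passed without libraries 489 and 6756 (0.25, edgeR adjusted p = 0.0213), with 2.55% of genes called. Within C3H_wt, Pdp1, a pyruvate dehydrogenase phosphatase, fell without library 489 (-0.65, edgeR adjusted p = 0.0404), where 0.509% of genes were called. Without libraries 489, 6756 and 6763 the mean effect was called for Gpd1l (0.22), Pdp1 (-0.29) and Phkb (-0.19), a regulatory subunit of phosphorylase kinase. In that fit 2.47% of genes were called. Between nuclei in the sham series 16 of these genes were higher and 13 lower with the C3H nucleus, where 18.9% of all genes were higher and 16.8% lower. Among the higher were Pygl, the liver phosphorylase (2.76), Eno2, the neuronal enolase (1.56), and Stbd1, a glycogen-binding protein (1.2). Gaa, the lysosomal glucosidase that degrades glycogen, was lower (-0.77), as were the glucose carrier Slc2a3 (-0.63) and the hypoxia factor Hif1a (-0.32), whereas Pgd of the pentose phosphate pathway (0.53) and Pdhx, a component of the pyruvate dehydrogenase complex (0.56), were higher. The same directions were called in the surgery series for Pygl (2.61), Eno2 (1.48), Stbd1 (1.41), Gaa (-0.55), Hif1a (-0.47) and Pgd (0.36).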

How the data were processed

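RNA of isolated mouse cardiomyocytes was sequenced in 48 libraries. The authors deposited 1 table of expected counts per gene, 13.9% of them not whole; per the submitters' processing notes CASAVA 1.8.2, Bowtie and RSEM 1.2.0 were used with build mm9, and per the labels' protocols a TruSeq stranded kit. Which step made which value is not given in the sources used here. The counts were rounded, filtered with edgeR's filterByExpr and TMM-scaled, and each set of 24 libraries was fitted with group means in edgeR 4.0.16 (quasi-likelihood F test, R 4.3.3), with adjusted p-values over all genes. SE is the log2 fold change divided by the root of F. Levels are CPM, and log2 CPM has a prior count of 2. DESeq2 1.42.0, no filter, other size factors, the L digit, left-out libraries and added copies were alternatives. The fits were tested on simulated data. No pair of libraries within a group agreed within sampling noise. The members and gene lists, and the rule that the text gives all isoform members and members past the test, were chosen with earlier results of these data known. Some comparisons share control libraries.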

Additional observations from a re-analysis of the deposited data

Results flagged for a closer look

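In the groups of 6 libraries, 6 of 144 combinations of a member and a group had a library far from the others by Dixon's criterion, the gap to the nearest library over the whole range, where chance gives about 1 in 20. On the log2 CPM scale these were Gapdh at 11.13 in C3H_WT library 23 (the others 11.46 to 11.63), Eno1 at 5.97 in C3Hn-C57mt library 15 (6.20 to 6.31) and Gyg at 7.63 in C3Hn-C57mt library 18 (7.32 to 7.40). The remaining ones were Pygm at 9.83 in C57_WT library 3 (10.20 to 10.41), Ugp2 at 8.59 in C57n-C3Hmt library 10 (8.13 to 8.30) and Aldoc, which is near 0 counts, at -3.49 in C3H_WT library 24 (-2.25 to -1.56).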

How the results depend on the processing

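No paired analysis was possible because the groups share no library numbers. The count of members changed by ACF, 1 in edgeR, was 4 with DESeq2, 0 with no filter on low counts, 0 with the L digit in the model and 9 without libraries 489 and 6756. Leaving out each library in turn gave 0 to 4; the Pfkp call was lost in 19 of 24 such fits. Without both libraries 5 members were called after ACF in C3H_wt (0 with all), 17 between C3H and C57 titles (6) and 5 between the wild types (3). Without libraries 489, 6756 and 6763, chosen after seeing the data, the calls numbered 9 for ACF, 1 in C57_wt (Hk1), 6 in C3H_wt, 16 between titles and 8 between the wild types. With the L digit in the model the calls numbered 10 between titles (6 without it), 4 between nuclei (17), 5 on C57 mitochondria (18) and 2 on C3H mitochondria (9). The cause of these changes was not tested. For the DESeq2, unfiltered and L-digit fits the share of all genes called was not counted. For the fit without libraries 489, 6756 and 6763 that share is given for the mean ACF effect only. DESeq2 called 2 members for the difference of the nuclear effect between mitochondria, against 0. Leaving out 1 library gave 0 to 1 calls for ACF in C3H_wt, 0 to 2 in C57_wt, 4 to 11 between titles, 15 to 22 between nuclei, 6 to 11 on C3H mitochondria, 14 to 21 on C57 mitochondria and 0 to 2 for the difference of the nuclear effect between mitochondria, 2 being the count without C57_WT library 5. The isoform ratios past the threshold numbered 6 to 7 for ACF, 4 for the nucleus and 0 for mitochondria; with labels permuted across genotypes Eno1 over Eno3 no longer passed (adjusted p = 0.126). Adding Gm5506, chosen after seeing the data, reversed Eno1, C3H titles minus C57 titles (0.026), Eno1, C3H_wt minus C57_wt (0.041), Eno1, C3Hn minus C57n (0.18), and the same on C57 mitochondria (0.26) and C3H mitochondria (0.090). Other scalings moved the median of all genes by at most 0.021. With 3 libraries a group, no member passed within a single genotype when all libraries were used.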
